A study of Mus musculus with 2 samples.

Results

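The genes described are 10 heterogeneous nuclear ribonucleoprotein (hnRNP) genes, chosen by symbol from 55536 annotated genes: Hnrnpa1, Hnrnpa2b1, Hnrnpa3, Hnrnpc, Hnrnpd, Hnrnpf, Hnrnpk, Hnrnpl, Hnrnpm and Hnrnpu. All 10 were found, with 130 annotated isoforms, and none was removed by a filter. Total RNA was depleted of ribosomal RNA and sequenced as 2 libraries, from bone marrow-derived macrophages of C57BL/6J mice, which are primary macrophages grown from marrow in culture. Both libraries belong to 1 group, cells stimulated with 100 ng/ml Lipid A, the membrane anchor of bacterial lipopolysaccharide, for 50 minutes. They are labelled as biological replicates 1 and 2, and the labels give no age. The description calls the fraction nucleoplasmic, whereas the source label calls it nuclear. Replicate 1 was made from 500 ng of RNA and replicate 2 from 1 µg. No library from unstimulated cells, another time or another fraction was analysed here, so no value below is a response to Lipid A or an enrichment in the nucleus, and no test between conditions was possible.

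hnRNP proteins bind nascent transcripts in the nucleus, package them, and influence which splice sites are used, where RNA is cleaved and how it is exported. Their genes are abundantly transcribed in most cell types, and many of them make isoforms that are not translated into the full protein. Nonsense-mediated decay is the cytoplasmic pathway that destroys an mRNA whose stop codon lies well upstream of its last exon junction. A retained-intron isoform keeps intron sequence between or beyond its exons. Because a nuclear fraction holds RNA that has not yet been exported, isoforms of both kinds can be measured there before they are degraded or finished.

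Summed over the gene table, replicate 1 had 10395300 expected counts and replicate 2 had 20515408. The 10 genes took 0.208% of the counts in gene rows in replicate 1 (95% Wilson interval 0.205% to 0.210%) and 0.198% in replicate 2 (0.196% to 0.200%), intervals that cover counting error only. Levels are given in TPM, transcripts per 1000000, which are scaled for length and for the whole library. Protein-coding genes of the nuclear genome made up 26.2% of the TPM of replicate 1 and 17.0% of that of replicate 2. The median gene with a mean of at least 1 TPM had a log2 ratio of -0.69 (replicate 2 over replicate 1). Every SD of a TPM below includes this common shift. All 8 macrophage markers reached 1 TPM in both libraries, with mean TPM from 26.3 to 1484. None of 20 markers of T cells, B cells, neutrophils, erythroid cells and stromal cells reached 1 TPM in both libraries, the highest mean was 0.815 TPM, and 7 of them had no count.

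All 10 hnRNP genes were above 10 TPM in both libraries in the main quantification, which is used unless stated. In the other deposited quantification of the same libraries, Hnrnpa1 (7.72 TPM) and Hnrnpd (7.55 TPM) were below 10 TPM in replicate 2. By the main quantification the median of the 10 genes was 98.8 TPM in replicate 1 and 53.1 TPM in replicate 2 (75.9 ± 32.3, SD, n = 2). The median of the 9158 protein-coding genes with a mean of at least 1 TPM was 7.82 and 5.12 TPM.

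The A/B-type proteins share paired RNA recognition motifs and a glycine-rich tail. Among their genes, Hnrnpa2b1 (ENSMUSG00000004980.16, chr6:51460932-51469894, minus strand, mm10) was the highest of the 10 in both libraries. Its level was 429.7 TPM in replicate 1 and 255.6 TPM in replicate 2 (343 ± 123, SD, n = 2), from 5703 and 11594 expected counts. It alone held 31.9% and 33.4% of the summed TPM of the 10 genes. Hnrnpa3 (chr2:75659261-75669407, plus strand) was at 152.3 and 94.6 TPM (123 ± 40.8, SD, n = 2). Hnrnpa1 (chr15:103240432-103246692, plus strand), a well-studied splicing repressor, was much lower, at 53.4 and 35.2 TPM (44.3 ± 12.9, SD, n = 2), from 935 and 2091 expected counts.

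Hnrnpk (chr13:58391142-58403343, minus strand) encodes a KH-domain protein that binds C-rich RNA and DNA. It was second in both libraries, at 206.5 and 107.9 TPM (157 ± 69.8, SD, n = 2). Hnrnpm (chr17:33646233-33686860, minus strand), whose protein binds GU-rich RNA and is known as a splicing regulator of innate immune transcripts in macrophages, was at 134.2 and 68.5 TPM (101 ± 46.5, SD, n = 2). Hnrnpu (chr1:178321108-178337797, minus strand) encodes the scaffold attachment factor that ties RNA to chromatin. Its level was 89.2 and 61.6 TPM (75.4 ± 19.6, SD, n = 2).

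Hnrnpc (chr14:52073377-52104028, minus strand), whose protein forms tetramers on U-rich stretches, reached 108.3 TPM in replicate 1 but 38.7 TPM in replicate 2 (73.5 ± 49.2, SD, n = 2). That gap between libraries was the widest of the 10 genes as a ratio. Hnrnpl (chr7:28808541-28822266, plus strand) encodes a binder of CA repeats and was at 81.3 and 44.7 TPM (63.0 ± 25.9, SD, n = 2). Hnrnpf (chr6:117900324-117925622, plus strand), whose protein binds G-rich RNA, was at 52.0 and 35.9 TPM (43.9 ± 11.4, SD, n = 2). Hnrnpd (chr5:99955935-99978938, minus strand) encodes AUF1, a binder of AU-rich elements such as those of cytokine mRNAs. In the main quantification it was the lowest in both libraries, at 41.7 and 21.9 TPM (31.8 ± 14.0, SD, n = 2), from 567 and 813 expected counts.

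By these TPM the first 4 places, Hnrnpa2b1, Hnrnpk, Hnrnpa3 and Hnrnpm, and the last place were the same in both libraries. Hnrnpa2b1 exceeded Hnrnpk 2.08-fold in replicate 1 and 2.37-fold in replicate 2. Hnrnpu and Hnrnpc, Hnrnpc and Hnrnpl, and Hnrnpa1 and Hnrnpf changed places between libraries and therefore have no settled order. When TPM was rescaled over protein-coding genes of the nuclear genome, which takes out the difference in the other RNA, neighbours in the order overlapped for those same 3 pairs and for no other. On this scale Hnrnpa2b1 was at 1642 and 1501 TPM, Hnrnpa1 at 204.0 and 206.7 TPM, and Hnrnpc at 413.9 and 227.2 TPM. The order also depended on the quantification. In the other quantification Hnrnpa2b1 and Hnrnpk were again first and second in both libraries. Hnrnpa3, at 70.8 and 12.3 TPM, was there below Hnrnpm (113.0 and 19.6 TPM), Hnrnpu (74.7 and 19.2 TPM) and Hnrnpc (84.3 and 13.3 TPM). The lowest gene of replicate 1 there was Hnrnpa1, at 17.7 TPM beside 30.9 TPM for Hnrnpd. In replicate 2 these 2 genes were at 7.72 and 7.55 TPM.

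**Figure D1:**
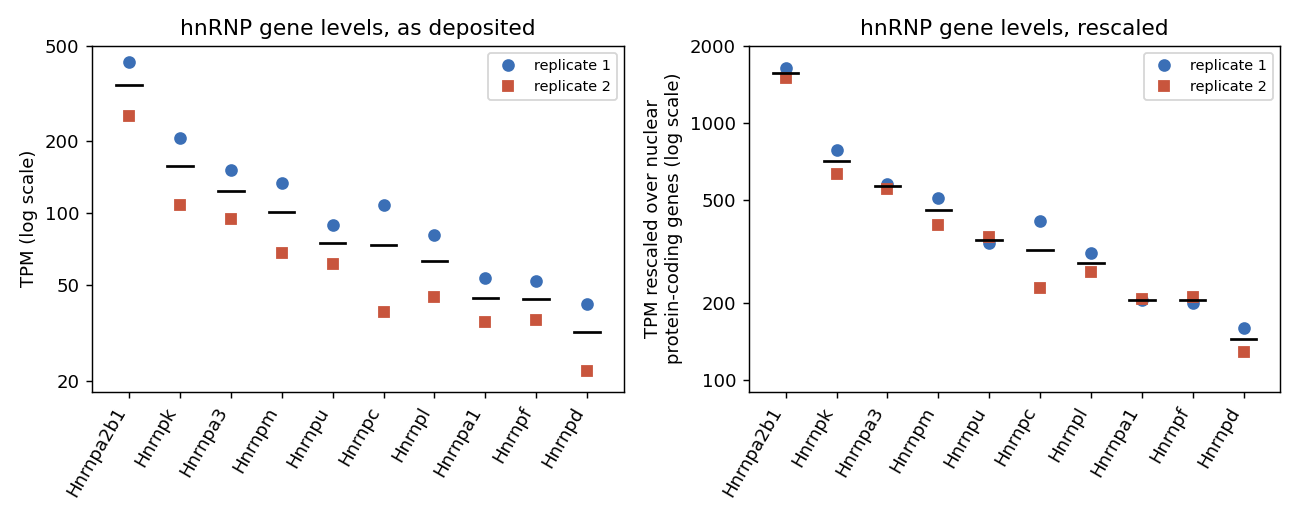
Gene TPM of the 10 hnRNP genes on log axes, as deposited (left) and rescaled over protein-coding genes of the nuclear genome (right), with a point for each replicate and a bar at the mean. As deposited, replicate 2 lies below replicate 1 for every gene; after rescaling, the points nearly coincide for Hnrnpa1 and Hnrnpa3, whereas Hnrnpc stays apart at 413.9 and 227.2 TPM.

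The annotation sorts the 130 isoforms into 74 protein-coding, 15 nonsense-mediated decay and 36 retained-intron isoforms, and Hnrnpm and Hnrnpu have 3 and 2 isoforms of other classes. The share of a class is the percent of a gene's transcript TPM in its isoforms. By the mean of both libraries, 7 of the 10 genes had less than 50% of their TPM in protein-coding isoforms. The same held for 26.9% of the 7675 protein-coding genes that had a mean of at least 1 TPM and an isoform not annotated as coding. Hnrnpf has coding isoforms only and so is at 100% by annotation. Over the other 9 hnRNP genes the median coding share was 39.2% in replicate 1 and 45.5% in replicate 2, beside 69.0% and 66.3% over the 7675 genes.

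Below, the leading isoform of a class is the one with the highest mean TPM. Of the 9 genes with more than 1 coding isoform, the leading coding isoform was the highest in both libraries in 3 (Hnrnpa1, Hnrnpa3 and Hnrnpc) and in a single library in 6.

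The part outside protein-coding isoforms was of different kinds in different genes. A nonsense-mediated decay share of at least 25% was found in 3 members, Hnrnpa1, Hnrnpd and Hnrnpu, beside 5.6% of the 7675 genes. A retained-intron share of at least 25% was found in 4, Hnrnpa2b1, Hnrnpk, Hnrnpm and Hnrnpl, beside 40.4% of the 7675 genes. No member passed both limits. Hnrnpa3, Hnrnpc and Hnrnpf were mainly coding in both libraries.

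**Figure D2:**
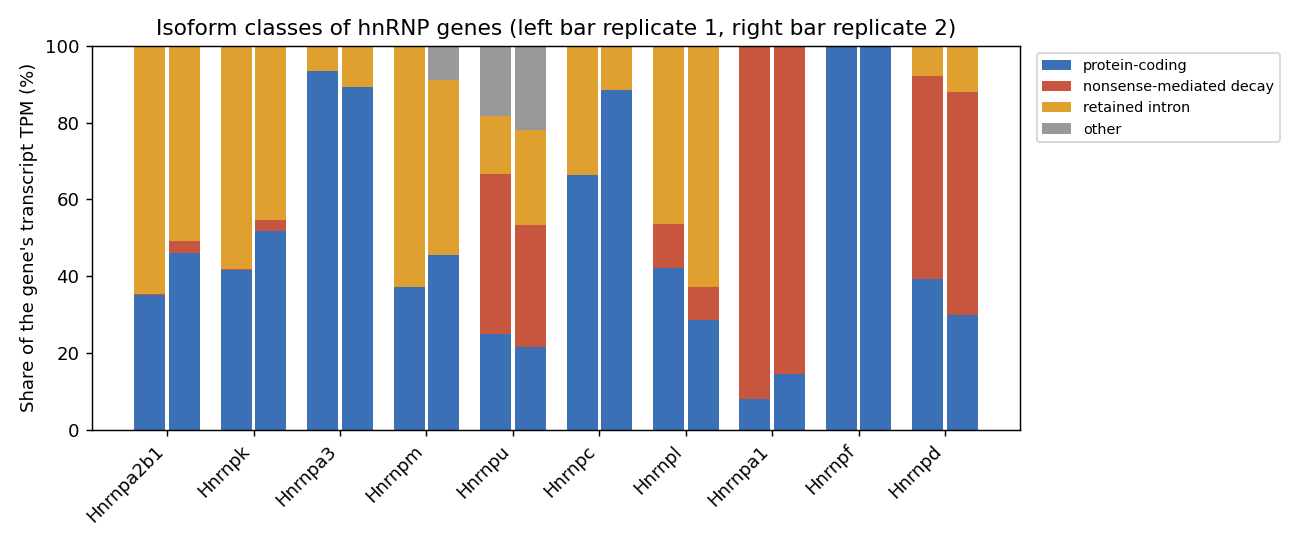
Percent of each hnRNP gene's transcript TPM in protein-coding, nonsense-mediated decay, retained-intron and other isoforms, as stacked bars from 0 to 100% for replicate 1 (left bar) and replicate 2 (right bar). Nonsense-mediated decay isoforms fill most of Hnrnpa1 (92.1% and 85.6%), retained-intron isoforms much of Hnrnpa2b1 (64.6% and 50.7%), and coding isoforms all of Hnrnpf.

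Short stretches of 4 isoforms not annotated as protein-coding are printed because the results turn on where their reading frame stops or their intron begins. They are from the GENCODE M21 transcripts on mm10, 30 bases each and 5′ to 3′. Capitals mark the stop codon in the first 3 and, in the last, the GT with which the unspliced intron begins.
Hnrnpa1-203, the stop codon (chr15:103243985-103244014, plus strand): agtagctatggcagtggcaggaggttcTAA
Hnrnpd-208, the stop codon (chr5:99962545-99962574, minus strand): ggacatcaaaatagctacaaaccatacTAA
Hnrnpl-213, the stop codon inside its extra exon (chr7:28817364-28817393, plus strand): tctttcagaactgtgctaactcactgtTGA
Hnrnpk-204, the exon end read through into the intron (chr13:58399136-58399165, minus strand): ccgtacagacGTaagtattaaactactgaa
In Hnrnpa1-203 and Hnrnpd-208 the stop codon shown is also the one used by coding isoforms of the gene. The stop codon of Hnrnpl-213 is used by no coding isoform of Hnrnpl.

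Hnrnpa1 had the most one-sided makeup. Its nonsense-mediated decay isoforms held 92.1% of its TPM in replicate 1 and 85.6% in replicate 2 (88.9% ± 4.61, SD, n = 2), and its coding isoforms 7.88% and 14.4%. Of the 7675 genes, 15 (0.195%) had a higher decay share. The leading isoform, Hnrnpa1-203, was at 35.8 and 18.8 TPM, from 428 and 700 expected counts. The leading coding isoform, Hnrnpa1-202, was at 4.21 and 5.07 TPM, from 71.7 and 266 expected counts. In this quantification the decay isoform was the more abundant of the pair in both libraries.

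The sequence that the 2 decay isoforms of Hnrnpa1 have and its coding isoforms lack lies wholly after the stop codon. Hnrnpa1-203 uses the coding stop and then joins 2 further exons of 76 and 148 nt (chr15:103246346-103246421 and chr15:103246545-103246692), which places its last junction 90 nt past the stop. In Hnrnpa1-202 that distance is 14 nt. A junction more than about 50 nt past the stop is the usual mark of a decay target. Since 100% of the decay TPM of Hnrnpa1 lay in isoforms that share the coding stop, 100% of the gene's TPM was in isoforms ending their reading frame at a coding stop.

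How much of this RNA is Hnrnpa1-203 depended on the quantification. In the other deposited quantification, which the deposited readme files trace to the read files, Hnrnpa1-203 was at 3.89 and 3.16 TPM and Hnrnpa1-204, the other decay isoform, at 8.58 and 2.75 TPM. There the coding Hnrnpa1-202 was at 5.24 and 1.81 TPM, above Hnrnpa1-203 in replicate 1 and below it in replicate 2. The main quantification gave Hnrnpa1-204 13.4 and 11.3 TPM. The decay share of the gene was 70.4% and 76.5% in the other quantification, so the class led in both, but the leading isoform of replicate 1 did not. The level of Hnrnpa1 there was 17.7 and 7.72 TPM.

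Hnrnpd had 53.0% of its TPM in decay isoforms in replicate 1 and 58.1% in replicate 2 (55.6% ± 3.65, SD, n = 2), and 39.2% and 29.8% in coding ones. Its leading isoform of any class was Hnrnpd-208, a decay isoform, at 17.6 and 9.17 TPM. The leading coding isoform, Hnrnpd-203, was at 6.18 and 2.10 TPM. In the other quantification Hnrnpd-208 was at 11.0 and 1.81 TPM, and the coding Hnrnpd-210, at 7.14 and 2.61 TPM, exceeded it in replicate 2. The models of Hnrnpd-208, of 1117 nt, and of Hnrnpd-210, of 493 nt, are annotated as incomplete. Hnrnpd-208 again keeps the coding stop and gains an exon of 107 nt behind it (chr5:99962098-99962204), which puts the last junction 137 nt past the stop. Isoforms of this design held 88.5% and 91.7% of the decay TPM of Hnrnpd. Coding isoforms and decay isoforms with a coding stop added up to 86.1% and 83.1% of the gene's TPM.

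Hnrnpu and Hnrnpl follow other designs. Hnrnpu had 41.8% and 31.6% of its TPM in decay isoforms (36.7% ± 7.24, SD, n = 2). The leading one, Hnrnpu-206, was at 36.5 and 19.3 TPM, above the only coding isoform, Hnrnpu-201, at 22.2 and 13.3 TPM. Hnrnpu-206 has 3 exons at its 3′ end that no coding isoform has, of 51, 94 and 122 nt, and a stop codon of its own 183 nt before its last junction. Hnrnpu-201 is 7640 nt long and Hnrnpu-206 is 2844 nt, so by expected counts the order was the opposite, with 1847 and 3368 for the coding isoform and 1075 and 1735 for the decay isoform.

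Hnrnpl had 11.5% and 8.64% of its TPM in its single decay isoform, Hnrnpl-213, at 9.36 and 3.86 TPM, whose model is also annotated as incomplete. That isoform carries an extra exon of 70 nt, exon 6 of its 13 (chr7:28817335-28817404), and the stop codon printed above lies within that exon, 842 nt before the last junction. Exons of this kind, whose inclusion brings in an early stop codon, are known as poison exons. The leading coding isoform, Hnrnpl-202, was at 13.4 and 8.24 TPM.

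**Figure D3:**
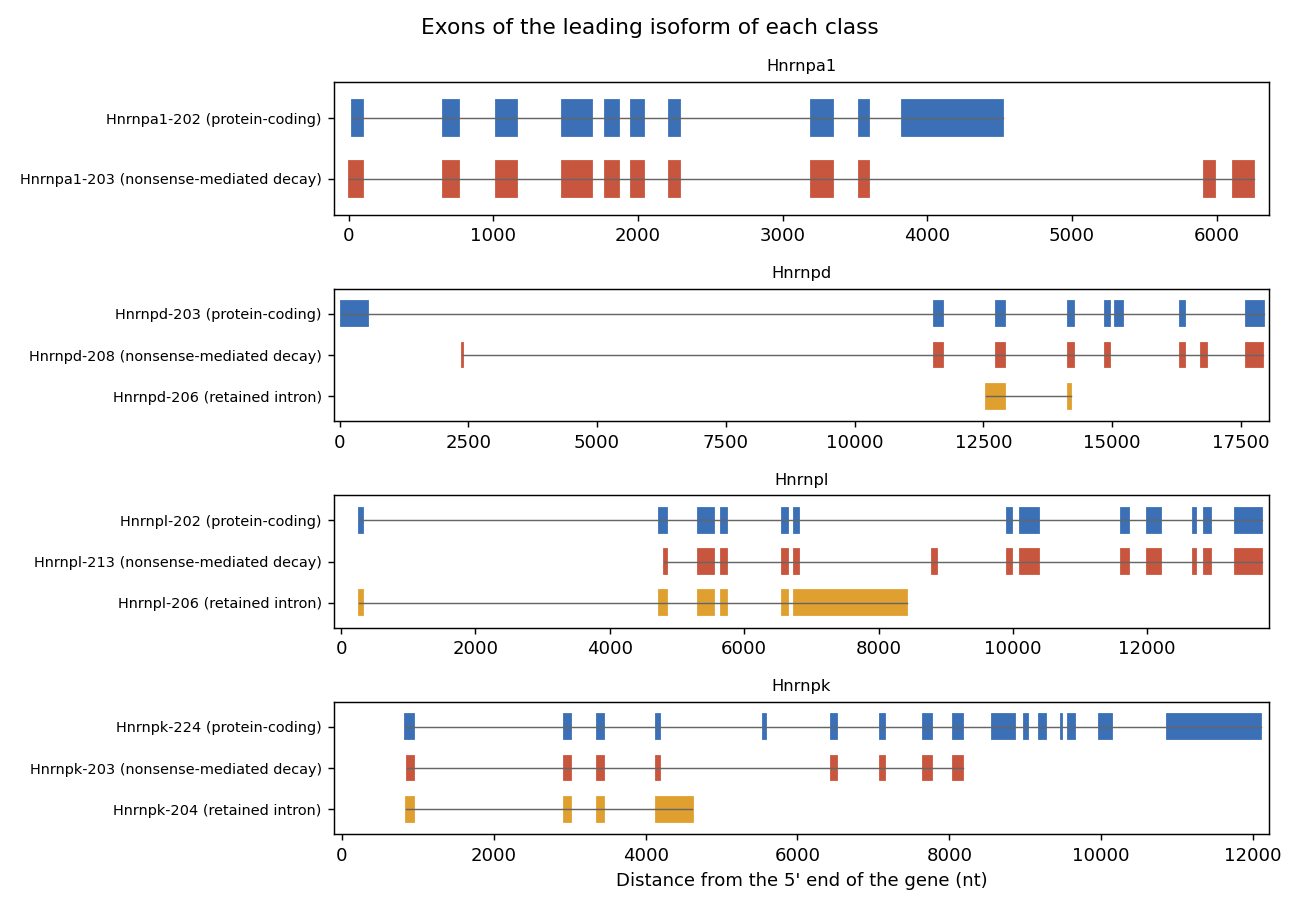
Exons (boxes) and introns (lines) of the leading isoform of each class of Hnrnpa1, Hnrnpd, Hnrnpl and Hnrnpk, drawn 5′ to 3′ against the distance in nt from the 5′ end of the gene. Hnrnpa1-203 and Hnrnpd-208 have added exons near the 3′ end, Hnrnpl-213 has an added internal exon of 70 nt, and the last exons of Hnrnpl-206 and Hnrnpk-204 run on into an intron.

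In Hnrnpa2b1 the retained-intron isoforms held 64.6% of the gene's TPM in replicate 1 and 50.7% in replicate 2 (57.7% ± 9.80, SD, n = 2), and the coding isoforms 35.0% and 46.0%. The leading pair were Hnrnpa2b1-211 at 106.3 and 48.4 TPM and Hnrnpa2b1-208 at 99.2 and 54.6 TPM, and both are models of 2 exons. All the sequence that sets them apart from coding isoforms lies past the coding stop. Hnrnpa2b1-208 keeps an intron of 156 nt (chr6:51463255-51463410), and Hnrnpa2b1-211 has 704 nt outside coding exons. The leading coding isoform, Hnrnpa2b1-210, was at 59.9 and 19.02 TPM. In replicate 2 the coding isoforms Hnrnpa2b1-202 at 38.3 TPM and Hnrnpa2b1-204 at 35.0 TPM exceeded it, and each was below both members of the intron pair in both libraries. The decay isoform Hnrnpa2b1-207, at 1.74 and 4.03 TPM, has no base and no junction that coding isoforms lack. Its last junction lies 157 nt past the stop, and so does that of the coding isoform Hnrnpa2b1-202. In this gene the class labels therefore do not separate isoforms by that distance.

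Hnrnpk had 58.0% and 45.4% of its TPM in retained-intron isoforms (51.7% ± 8.90, SD, n = 2). The leading one, Hnrnpk-204, was at 34.5 and 18.1 TPM and takes 430 of its 780 nt from outside coding exons, past the GT shown above. The intron isoform Hnrnpk-215 was higher in replicate 1, at 46.8 TPM, but at 1.61 TPM in replicate 2. The leading coding isoform, Hnrnpk-224, was at 25.7 and 12.3 TPM, and another, Hnrnpk-221, at 15.1 and 19.8 TPM, above Hnrnpk-204 in replicate 2. The leading decay isoform of the gene, Hnrnpk-203, was at 0 and 1.57 TPM.

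In Hnrnpm the retained-intron share was 62.8% and 45.5% (54.2% ± 12.2, SD, n = 2). Hnrnpm-213, of 591 nt, led at 45.6 and 12.0 TPM, and the coding isoform Hnrnpm-201, of 2370 nt, was at 19.04 and 14.6 TPM. In replicate 1 the coding isoform Hnrnpm-202 was above Hnrnpm-201, at 20.7 TPM. In the other quantification the intron isoform Hnrnpm-208, at 23.8 and 3.85 TPM, exceeded Hnrnpm-213, at 19.6 and 1.72 TPM. The intron share of Hnrnpl was 46.3% and 62.9% (54.6% ± 11.7, SD, n = 2). Hnrnpl was the only one of these 4 genes whose share was higher in replicate 2. Its leading intron isoform, Hnrnpl-206, at 9.81 and 8.78 TPM, has a last exon that runs on for 1608 nt beyond coding exons. In the other quantification Hnrnpl-208, at 11.1 and 2.58 TPM, exceeded Hnrnpl-206, at 5.38 and 1.78 TPM.

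Hnrnpu, Hnrnpc, Hnrnpd and Hnrnpa3 had smaller mean intron shares. Hnrnpu had 15.1% and 24.8%, and its leading intron isoform, Hnrnpu-202, was at 11.1 and 11.6 TPM. Hnrnpc had 33.5% in replicate 1 and 11.5% in replicate 2 (22.5% ± 15.6, SD, n = 2), the widest spread of any member. Hnrnpc-212, of 611 nt, was at 32.3 and 2.37 TPM, 29.8% and 6.12% of the gene's TPM. This isoform has no base or junction that the coding isoforms of Hnrnpc lack. Hnrnpd had 7.79% and 12.0%, with Hnrnpd-206 at 3.25 and 2.64 TPM, and Hnrnpa3 had 6.43% and 10.7%, all of it Hnrnpa3-205 at 9.79 and 10.1 TPM.

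Coding isoforms dominated the rest. Hnrnpa3 had 93.6% and 89.3% of its TPM in coding isoforms, led by Hnrnpa3-207 at 71.9 and 34.8 TPM. In the other quantification Hnrnpa3-207 was at 20.5 TPM in replicate 1 and near 0 in replicate 2, where Hnrnpa3-203 led at 3.25 TPM, and the gene's coding share was 87.5% and 76.3%. Hnrnpc had 66.5% and 88.5%, led by Hnrnpc-210 at 40.5 and 15.4 TPM. Hnrnpf was led by mean TPM by Hnrnpf-201, at 17.3 and 12.5 TPM, but Hnrnpf-210, at 17.9 and 9.03 TPM, was higher in replicate 1. In the other quantification Hnrnpf-210 was the highest in both libraries, at 19.4 and 2.72 TPM.

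The isoform classes differ in length. The retained-intron isoforms of the 10 genes have a median length of 733 nt, the decay isoforms 1104 nt and the coding isoforms 1658 nt. TPM divides by length, so a given number of reads weighs more in a short isoform. By expected counts, which are not divided by length, 3 of the 10 genes were below 50% coding (Hnrnpa1, Hnrnpl and Hnrnpa2b1), beside 17.2% of the 7675 genes. Their coding shares of counts were 7.67% and 12.7%, 40.1% and 37.5%, and 41.0% and 49.9% in replicates 1 and 2. By the other quantification 7 of the 10 genes were below 50%, and so were 43.4% of the 7675 genes. The same genes as by TPM had a decay share of at least 25% by counts (3 members, beside 5.02% of the 7675 genes) and in the other quantification (3, beside 6.27%). For the retained-intron share the same 4 members passed in the other quantification (beside 47.6%), and 3 passed by counts (beside 26.3%), where Hnrnpk was at 24.5%. The coding share of Hnrnpa1 was low under each measure, whereas 4 genes crossed 50%. From TPM to counts, Hnrnpk went from 46.7% to 74.9%, Hnrnpu from 23.2% to 54.7%, Hnrnpm from 41.3% to 64.6% and Hnrnpd from 34.5% to 56.7%. By counts the coding isoforms of Hnrnpd therefore exceeded its decay isoforms, which held 41.4%, the reverse of the order by TPM. By TPM of the other quantification, Hnrnpd had 40.8% coding and 53.2% decay in replicate 1. In replicate 2 the order was reversed there too, with 50.0% coding and 41.0% decay.

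**Figure D4:**
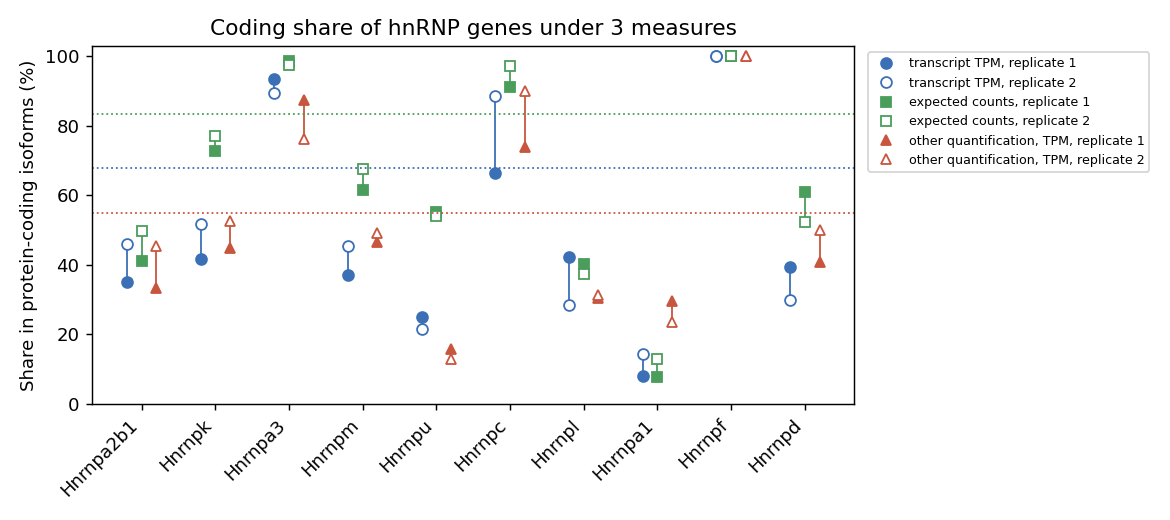
Share of each hnRNP gene in protein-coding isoforms (%), by transcript TPM, by expected counts and by TPM of the other quantification, with filled symbols for replicate 1 and open symbols for replicate 2. Dotted lines in the same colours are the medians over 7675 protein-coding genes (67.8%, 83.4% and 54.9%); Hnrnpa1, Hnrnpl and Hnrnpa2b1 lie below their line under each measure, and so do Hnrnpk, Hnrnpm, Hnrnpu and Hnrnpd.

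The replicates were compared as the log2 ratio of TPM, replicate 2 over replicate 1, minus the median ratio of genes with a mean of at least 1 TPM. None of the 10 genes was beyond 2-fold, beside 6.7% of 9158 protein-coding genes. Their median was -0.12, that of the protein-coding genes 0.03, and 6 of the 10 genes were below 0. The sign of that median turned with the scaling: it was 0.06 with TMM, 0.05 with DESeq2 size factors and 0.12 in the other quantification. Hnrnpc was lowest at -0.80, followed by Hnrnpm at -0.28, Hnrnpk at -0.25 and Hnrnpd at -0.24. Hnrnpf and Hnrnpu were highest, both at 0.15. In the other quantification Hnrnpa1 was at 1.07, beyond 2-fold. When counts were scaled by TMM, Hnrnpc stayed lowest, at -0.53, and 3 genes were below 0.

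**Figure D5:**
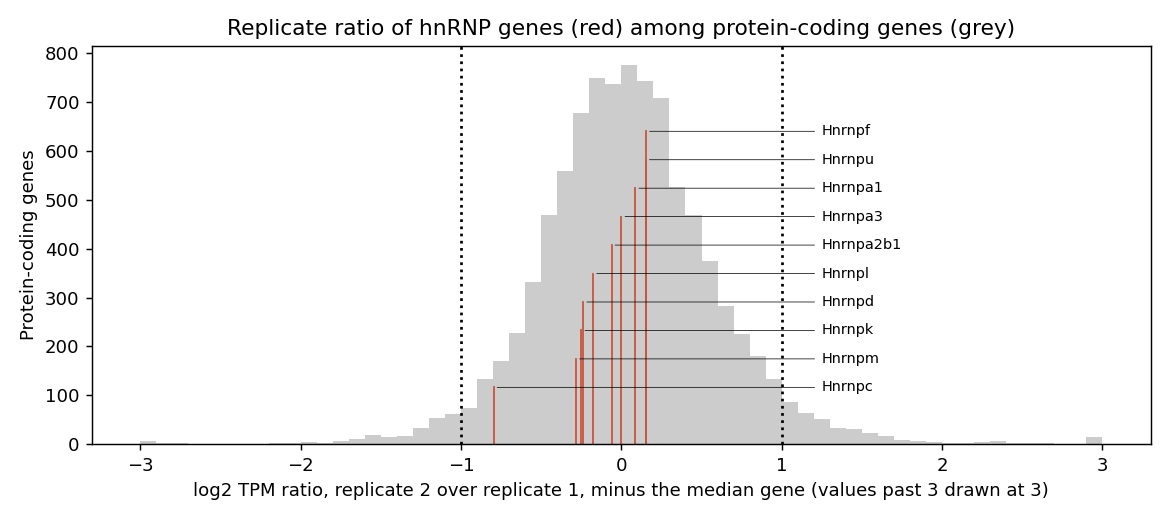
Number of protein-coding genes (grey bars, y axis) by log2 TPM ratio of replicate 2 over replicate 1 minus the median gene (x axis), with the 10 hnRNP genes as red lines whose heights carry no value and dotted lines at 2-fold. All 10 lie within 2-fold, from -0.80 for Hnrnpc to 0.15 for Hnrnpf.

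Single isoforms differed more between replicates than the genes did. Of 81 isoforms with a mean of at least 1 TPM, 4 were at 0 in a single library and have no ratio, 3 of them in replicate 1 and 1 in replicate 2. Of the other 77, 4 were lower in replicate 2 by more than 4-fold relative to the median gene and 1 was higher. Those 4, named here after their values were seen, were Hnrnpa2b1-206 (35.7 and 2.35 TPM), Hnrnpc-212 (32.3 and 2.37 TPM), Hnrnpk-215 (46.8 and 1.61 TPM) and Hnrnpl-204 (18.5 and 1.95 TPM). All 4 are 502 to 611 nt long. With a limit of 650 nt, also set after the values were seen, 7 of 14 shorter isoforms with a ratio and 31 of 63 longer ones were below 0, with medians of -0.04 and 0.03. Of the isoforms at 0 in replicate 1 alone, 1 was under this limit, Hnrnpm-209 at 0 and 5.80 TPM.

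The wider family was described from a list of 25 further genes of hnRNP proteins and close relatives, such as the PTB and poly(C)-binding proteins. In both libraries 23 of the 25 reached 1 TPM, and 18 reached 10 TPM. The list's median was 31.4 and 21.6 TPM, lower than that of the 10 genes. The highest were Hnrnph1, a G-run binder related to Hnrnpf, at 272.2 and 124.3 TPM, and Hnrnpll, a relative of Hnrnpl known for CD45 splicing in lymphocytes, at 244.1 and 100.1 TPM. Ewsr1, whose protein binds RNA and takes part in transcription, came next at 150.4 and 121.9 TPM. Pcbp3 (0 and 0.16 TPM, 0 and 5 expected counts), Pcbp4 (1.07 and 0.52 TPM) and Grsf1 (4.96 and 3.38 TPM) were lowest.

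Low coding shares in that list were those of Hnrnpll (10.8% and 8.30%) and Hnrnph1 (9.01% and 11.7%). RNA of Hnrnpll outside protein-coding isoforms was mainly of retained-intron isoforms (65.2% by the mean), whereas Hnrnph1 had 89.6% in isoforms of other classes. For the 19 list genes with an isoform not annotated as coding and a mean of at least 1 TPM, the median coding share was 59.9% and 54.9%. Of these, 9 were below 50%. Over the 12 such genes of the 13 on a list of SR proteins, which often act against hnRNP proteins in splice site choice, the median coding share was 36.5% and 37.2%. Again 9 were below 50%. That list ran from Srsf5 at 433.4 and 282.5 TPM to Srsf12 at 0.07 and 0.04 TPM. Its median retained-intron share was 40.3% and 42.1%, beside 33.5% and 24.8% for the 9 hnRNP genes and 16.3% and 19.3% for the 7675 genes. By expected counts, the median of the mean shares was 44.2% for the SR list, 5.79% for the 9 hnRNP genes and 8.14% for the 7675 genes.

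Near-identical copies and overlapping genes limit some values. With copies taken as genes at least 90% identical over at least 50% of the leading coding isoform, Hnrnpa3 had 36, of which 34 are annotated pseudogenes. Together these held 519 and 489 expected counts, 15.4% and 8.12% of the sum of Hnrnpa3 and its copies. The 11 copies of Hnrnpa1, all pseudogenes, held 3.72% and 3.08%, and the single copy of Hnrnpk held 3.49% and 3.18%. Hnrnpf had 4 copies with 2 and 5.43 counts, and the 1 copy of Hnrnpa2b1 had no count. No copy was found under this rule for Hnrnpc, Hnrnpd, Hnrnpl, Hnrnpm or Hnrnpu. The 50% limit counts untranslated sequence, so a copy of only the reading frame can be missed where the isoform is long. Hnrnpu-201 is 7640 nt long and Hnrnpa3-207 is 1074 nt, so numbers of copies cannot be compared between genes. The 2 annotated pseudogenes with an Hnrnp symbol had no count.

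Several members overlap other genes. Rmi1 overlaps Hnrnpk on the opposite strand over 1096 nt and had 301 and 493 expected counts. Cox20 overlaps Hnrnpu on the opposite strand over 1586 nt and had 44.3 and 26.1. On the opposite strand of Hnrnpf lie 4933440N22Rik, overlapping by 1953 nt with 23.6 and 199 expected counts, and Gm43863, overlapping by 1192 nt with 53.0 and 229. Hnrnpf itself had 935 and 2126. March2 overlaps Hnrnpm on the same strand over 1169 nt, with 157 and 327. These overlaps are of whole gene spans, introns included, and need not hold shared exon sequence. No source used here gives the strand setting of the counting, so whether reads of opposite-strand partners were kept apart is not known. Mir7-1, a microRNA gene inside Hnrnpk, had no count.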

How the data were processed

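Per the file headers, the authors' tables per gene and per transcript give expected counts and TPM with the columns that RSEM writes. A second deposited transcript table of each library, called the other quantification, has the columns of kallisto (estimated counts and TPM). The deposited readme files name mm10 and annotation M21. The sources used here name no program, version, trimming, filter or strand setting. Posterior SDs and interval bounds were not printed.

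Symbols, isoform classes, coordinates and sequences came from GENCODE M21, in which all 55536 gene identifiers were found. Isoform shares are percentages of a gene's summed transcript TPM. Stop codons, junctions and exons were compared between each isoform and all coding isoforms of its gene. Copies were searched with blastn 2.17.0. Values are both libraries and mean ± SD (n = 2). There was 1 group, so no test was made, and edgeR 4.0.16 (TMM) and DESeq2 1.42.0 gave scaling factors only, from expected counts rounded to whole numbers. The ratio calculation was tested on simulated data. With 3 counts as the limit, a count of 0 leaves room for 0.290 counts per 1000000 in replicate 1 and for 0.146 in replicate 2, for counting error only, and no source used here mentions molecular identifiers. The members, lists and limits were chosen with earlier results of these data known.

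The named isoforms are the highest of each class per member by mean TPM. Hnrnpa1-204, Hnrnpa2b1-208 and the further isoforms named beside the leading ones were added after their values were seen. Of the family list, the 4 highest, the 3 lowest and the 3 with the lowest coding share are named, except 1 gene that is not reported here, and of the SR list both extremes. Alternatives were other scalings, pseudocounts, filters, measures of share, the other quantification and each library alone.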

Additional observations from a re-analysis of the deposited data

How the results depend on the processing

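With 10 genes and 1 group, the values below are medians and counts with no test, and each library alone is 1 sample. The median level of the 10 genes, 74.5 TPM by their means, was 158.8 in counts per 1000000 and 335.8 TPM after rescaling over protein-coding genes of the nuclear genome, since both change the unit. It ran from 53.1 to 98.8 in single libraries. The family list's median of 27.5 TPM became 124.6 after rescaling and 15.6 in the other quantification, and ran from 21.6 to 31.4 in single libraries. The median coding share over all 10 genes, 40.9%, was 46.7% in the other quantification and 60.6% by expected counts, and ran from 40.4% to 45.8% in single libraries. The median retained-intron share, 21.2%, was 4.59% by expected counts. Expected counts put 3 genes, not 7, below 50% coding. In the other quantification 1 gene, not 0, was beyond 2-fold between replicates. The median replicate log2 ratio, -0.12, was 0.06 with TMM, 0.05 with DESeq2 size factors and 0.12 in the other quantification, a change of sign within the spread between genes. The other 38 values, this median among them, moved by less than their spread, or by less than 1.5 times for counts. Of 290 values of single genes under alternatives, 52 moved. No paired analysis was possible because there is only 1 group. Isoform values are estimates that share reads among overlapping models, and with 2 libraries their error is known only roughly.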
